A study of Mus musculus with 24 samples.

Results

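Gene expression was compared between neural progenitor cells (NPC) carrying a Q92 allele of Htt and NPC carrying a Q50 allele, using 2 libraries of each line, 4 of the 24 libraries of the study. Htt encodes huntingtin, a large scaffold protein, and the number in Q92 or Q50 is the length of the CAG repeat in its first exon, which encodes a run of glutamines and causes Huntington's disease in people when it is long. The Q92 and Q50 cells are mouse embryonic stem cell (mESC) lines, each heterozygous for a knock-in repeat at Htt (called Hdh in the labels), which were differentiated into NPC. The longer line is Q92 in the titles and has 89 repeats in the protocol text and in the deposited table's header. The other NPC libraries, 2 each, came from Q20 and Q111 knock-in lines, from wild type (WT) cells and from Htt knockout (KO) cells, and the same 6 genotypes were sequenced as mESC. All mESC were grown with LIF on irradiated CF-1 embryonic fibroblast feeders, and NPC were made in N2B27 medium on gelatin and then kept on laminin with FGF and EGF. The labels name a line for each repeat length and do not say how many clones stand behind it, so repeat length cannot be told apart from any other difference between the lines. The series title ties the repeat expansion to RNA splicing; the values used here are levels per gene.

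NPC of this kind divide in FGF and EGF and share genes with radial glia, the stem cells of the developing brain. Cells along the neural tube carry a positional identity written in transcription factors: Otx2 and Six3 mark the forebrain and midbrain, while the clustered Hox genes are switched on in order from the hindbrain down the spinal cord. Astrocytes are the glia that such progenitors readily form, and fibroblast genes mark mesenchyme, which a neural culture should hold little of.

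The Q50 libraries held 48525333 and 84353617 recovered reads and the Q92 libraries 63644331 and 67570788. The labels call the samples biological replicates and do not say whether they came from separate differentiations, so the p-values measure the spread between these libraries. Replicates of a line were closer to each other than to the other line: the root mean square difference in log2(CPM + 1) was 0.535 between the Q50 libraries, 0.525 between the Q92 libraries and 0.919 to 0.971 between libraries of different lines. The WT libraries had the widest replicate difference of the 6 NPC groups (SD 0.869 on the log2 scale), and they share in the estimate of spread. Progenitor genes were present in both lines. Nes, which encodes the intermediate filament nestin, stood at 1270 and 1220 CPM in Q92 and 606 and 914 in Q50 (adjusted p = 0.242), Vim at 2420 and 2810 against 2220 and 2860, and Pax6 at 28.3 and 34 against 34.6 and 31.5. The pluripotency factor Pou5f1 was at 0 and 0.0625 CPM in Q92 and 0.058 and 0.0235 in Q50.

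Htt itself, on chromosome 5 at 34761740 to 34912534 (GRCm38), was measured at 184 and 168 CPM in Q92 and 182 and 173 CPM in Q50. The groups overlapped and the change was -0.01 (SE 0.14, adjusted p = 0.971) on the log2(CPM + 1) scale, which is used for all changes here, given as Q92 minus Q50. Its sign turned to 0.06 without Q92 replicate 2 and to 0.03 without Q50 replicate 1. The gene-level value sums both alleles, and the KO libraries, at 100 and 94.9 CPM, still held Htt reads.

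Of 13206 genes tested, 2571 (19.5%) were called, meaning an adjusted p (Benjamini-Hochberg) below 0.05. In Q92, 1060 genes (8.03%) were higher and 1511 (11.4%) were lower. The fall side was heavier among large changes: 361 genes rose and 1011 fell by 2-fold or more, and 23 rose and 125 fell by 8-fold or more. It stayed heavier among changes of 2-fold or more in a fit of the 8 knock-in libraries, with 471 rises and 1184 falls. The median change over all tested genes was 0.05. Groups that did not overlap were common, 9604 genes or 72.7%, with 2 libraries in each group. With the spread taken from the 8 knock-in libraries alone, the counts were 2888 higher and 2616 lower, so the excess of lower genes turned around, and leaving out any 1 of the 4 libraries left 1115 (without Q92 replicate 1), 1203 (without Q92 replicate 2), 1175 (without Q50 replicate 1) and 1406 (without Q50 replicate 2) called genes. The spread of the genes around the diagonal is drawn in the plot of Q92 against Q50 levels.

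**Figure D1:**
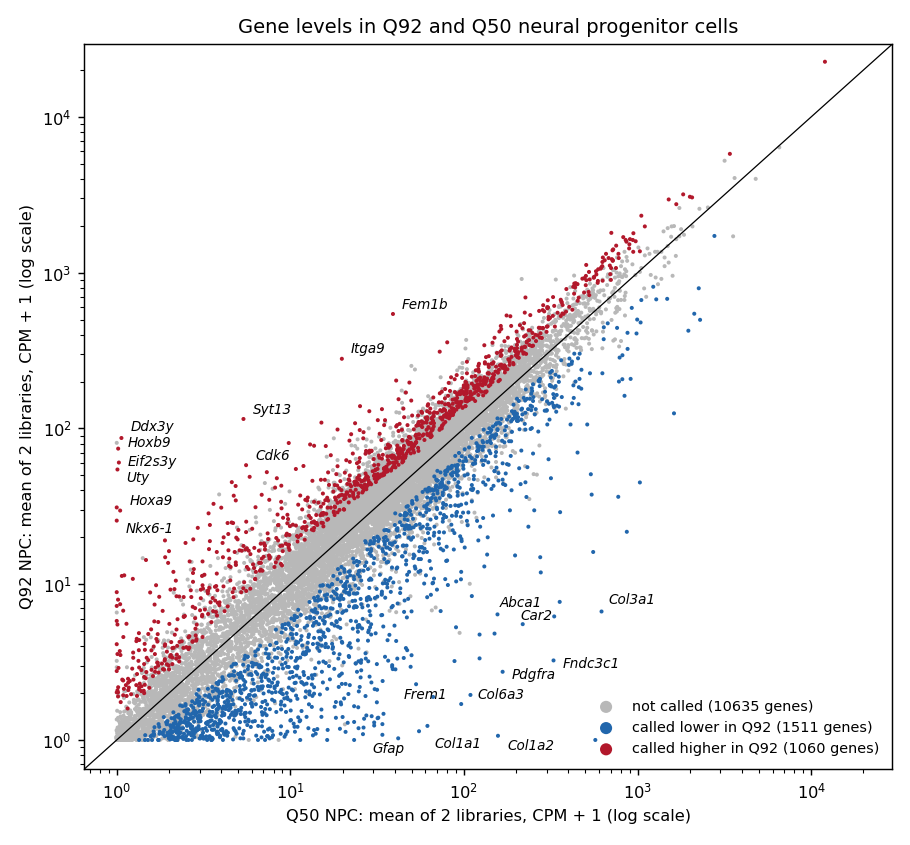
Each point is 1 of 13206 tested genes, with the mean CPM + 1 of the 2 Q50 libraries on the x axis and of the 2 Q92 libraries on the y axis, both on log scales; red and blue points were called higher (1060) or lower (1511) in Q92, grey points were not called, and the line marks equal levels. The 10 largest rises and 10 largest falls named in the text carry their symbols, and the blue points reach farther from the line than the red ones.

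Among protein-coding genes of more than 1 exon, the 10 largest rises included 3 genes of the Y chromosome (Ddx3y, Eif2s3y and Uty), 2 Hox genes (Hoxb9 and Hoxa9) and Nkx6-1, a homeobox factor of ventral spinal cord and hindbrain progenitors. Syt13, which encodes an atypical synaptotagmin, rose from 3.62 and 5.11 CPM in Q50 to 106 and 121 in Q92 (change 4.43, SE 0.4, adjusted p = 0.00025). Itga9, an integrin subunit, rose from 16.1 and 21.6 to 251 and 306 CPM (change 3.83, SE 0.54, adjusted p = 0.00226). Cdk6, a kinase of the G1 phase of the cell cycle, stood at 65.5 and 48.7 against 2.53 and 6.6 CPM (adjusted p = 0.00679), a call lost without Q92 replicate 1 (0.0526) or Q50 replicate 1 (0.0565). Fem1b, a substrate receptor of a ubiquitin ligase, stood at 542 and 543 against 46.1 and 29.9 CPM (adjusted p = 0.0218). That call was lost without Q92 replicate 1 (0.103), Q92 replicate 2 (0.0965), Q50 replicate 1 (0.0813) or Q50 replicate 2 (0.111), and the WT libraries disagreed on this gene, at 33.1 and 428 CPM.

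Among protein-coding genes of more than 1 exon, the 10 largest falls were mostly matrix and glial genes. Col1a2, Col3a1, Col1a1 and Col6a3 encode collagen chains, Frem1 a basement membrane protein, Gfap the astrocyte filament and Pdgfra the platelet-derived growth factor receptor of oligodendrocyte precursors and mesenchyme. Fndc3c1, a fibronectin type III domain gene on the X chromosome, fell from 304 and 351 to 2.38 and 2.1 CPM (change -6.66, SE 0.33, adjusted p = 8.93e-06). Abca1, a cholesterol exporter, fell from 373 and 287 to 5.37 and 5.05 CPM (change -5.72, SE 1.02, adjusted p = 0.00618). Car2, the cytosolic carbonic anhydrase, fell from 404 and 305 to 6.56 and 6.85 CPM (change -5.52, SE 0.25, adjusted p = 6.34e-06). Each of these 10 calls held in every alternative in which the gene was tested.

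Counts of called members of each gene list below stand beside 8.03% higher and 11.4% lower over all tested genes. Among lists of 20 or more tested genes, the Hox clusters had the largest share of rises. Of 21 tested Hox genes, 15 were higher in Q92 and 0 lower, with a median change of 2.45. Hoxb9, on chromosome 11 at 96271457 to 96276595, stood at 73.9 and 72.5 CPM in Q92 and at 0.0387 and 0 in Q50. The reads gave a ratio of 5000 (95% interval 1380 to 41300, counting error only) from 9110 reads against 2. Hoxa9 stood at 30.6 and 26.9 against 0.058 and 0.0353 CPM (change 4.83, SE 0.16, adjusted p = 1.71e-06). Hoxb6 had 8.17 and 7.61 CPM in Q92 and no read in either Q50 library, at least 360-fold higher against a floor of 3 reads over the group. Hoxb3, a more anterior member, was 19 and 25 against 1.35 and 2.5 CPM (change 2.99, adjusted p = 0.00125).

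Hox levels also varied among the other NPC lines. The summed CPM of the Hox list was 233 and 238 in Q92, 19.5 and 23.8 in Q50, 72.5 and 71.6 in Q20, 2.37 and 2.18 in Q111, 83.8 and 75 in WT, and 148 and 163 in KO. Q92 thus had the highest sum of the 6 genotypes and Q50 the next to lowest, above Q111. Of the 15 genes, 6 had both Q92 libraries above all 8 libraries of the other 4 genotypes. Both Q50 libraries lay below those 8 for 1 gene. Among all 1060 genes called higher the matching counts were 518 and 367. Over all tested genes, called or not, the shares were 8.66% and 5.75%. Hoxa9 was as high in KO (24.9 and 31.7 CPM) as in Q92.

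Several factors of forebrain and midbrain patterning were lower in Q92. Of 25 tested patterning genes, 8 were lower, 3 higher and 14 not called, with a median change of -0.11. Otx2, which specifies forebrain and midbrain, had no read in either Q92 library and stood at 12.1 and 18.5 CPM in Q50, at least 636-fold lower against the floor of 3 reads (adjusted p = 6.59e-05). Zic1 fell from 33.4 and 32.3 to 0.215 and 0.313 CPM (change -4.75, SE 0.54, adjusted p = 0.000798). Pax3, a dorsal neural tube and crest factor, fell from 5.51 and 6.14 to 0 and 0.0782 CPM (change -2.71, adjusted p = 0.000399). Other lower genes included Six3, Irx1, Lhx2 and Emx2. The call of Irx1 was lost without Q92 replicate 1 (0.0628), Q92 replicate 2 (0.0556) or Q50 replicate 1 (0.0725), and that of Emx2 without Q92 replicate 1 (0.204), Q92 replicate 2 (0.119), Q50 replicate 1 (0.248) or Q50 replicate 2 (0.0614).

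Nkx6-1 was the largest rise of the patterning list, at 23.6 and 25.6 CPM in Q92 and no read in Q50, at least 1120-fold higher against the floor (adjusted p = 2.47e-05). The other higher genes were Irx2 (10.7 and 11.6 against 6.01 and 5.34 CPM) and Tcf7l2 (20 and 19.4 against 10.5 and 10.5 CPM). Both of these smaller calls were lost on leaving out any of the 4 libraries: for Irx2 the adjusted p became 0.0679 without Q92 replicate 1, 0.0924 without Q92 replicate 2, 0.0617 without Q50 replicate 1 and 0.0878 without Q50 replicate 2, and for Tcf7l2 it became 0.0856, 0.0701, 0.0781 and 0.0678 in the same order. Nr2e1, a receptor of forebrain stem cells from the stem cell list, had no read in Q92 and 5.41 and 5.6 CPM in Q50 (adjusted p = 7.51e-06). Otx2 was also low in WT (0.455 and 0.245 CPM) and KO (0.591 and 0.3 CPM) and present in Q20 (14.8 and 16.5 CPM), and in Q111 it stood at 4.95 and 8.72 CPM.

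**Figure D2:**
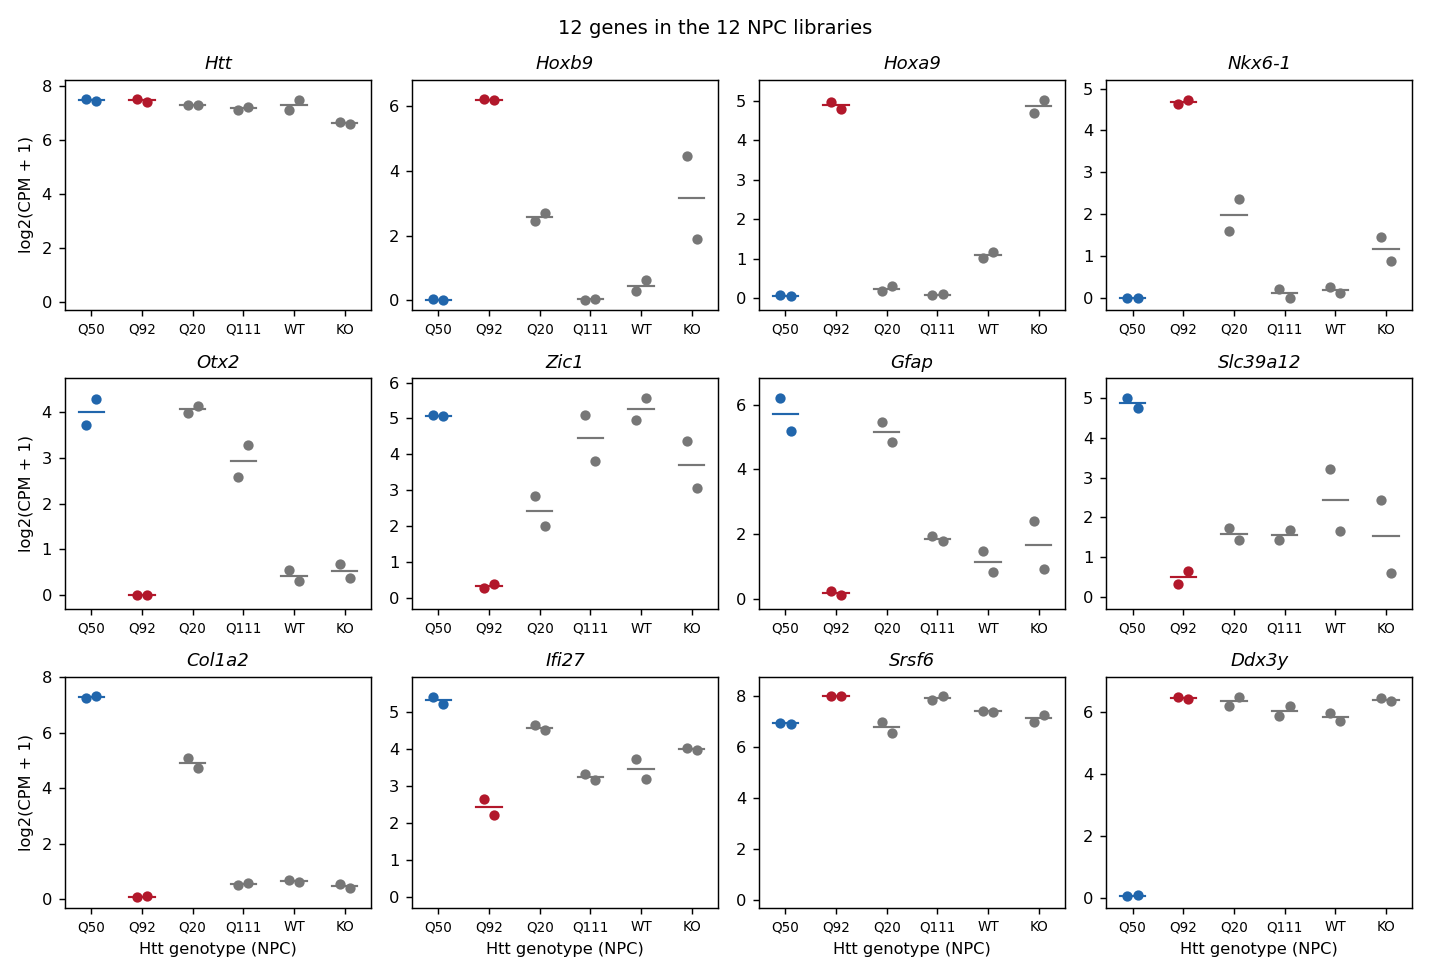
Each panel shows 1 gene, with log2(CPM + 1) on the y axis and the 6 NPC genotypes on the x axis; points are libraries (2 per genotype) and bars their means, Q50 in blue, Q92 in red and the others in grey. Htt is level between Q50 and Q92, Hoxb9, Hoxa9, Nkx6-1 and Ddx3y are near 0 in Q50 and high in Q92, and Otx2, Zic1, Gfap, Slc39a12 and Col1a2 are near 0 in Q92 and high in Q50.

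Of 5 tested Y chromosome genes, 4 were called higher in Q92 and 0 lower. The list of sex chromosome genes held 4 tested ones, of which 3 were present in Q92 NPC and near 0 in Q50 NPC. Ddx3y, an RNA helicase, stood at 87.6 and 84.1 CPM in Q92 and 0.058 and 0.0706 in Q50 (change 6.35, SE 0.18, adjusted p = 7.66e-07). Eif2s3y, a translation initiation subunit, stood at 57.8 and 61.1 against 0.058 and 0 CPM, and Uty, a histone demethylase relative, at 53.4 and 53.6 against 0.0193 and 0. The Q50 NPC libraries held 9 reads of Ddx3y together against 10684 in Q92. All 10 NPC libraries other than Q50 had Ddx3y at 50.5 CPM or more. In mESC the same genes were present in Q50 at a lower level than in Q92: Ddx3y stood at 22.9 and 27.6 CPM in Q50 and 81.9 and 90 in Q92. Kdm5d, a histone demethylase and the remaining gene of that list, was not called. It was low in both lines, at 0.215 and 0.188 against 0 and 0.0235 CPM. Karyotypes were not analysed here, and what part the Y chromosome has in the other changes was not tested.

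Astrocyte genes were lower in Q92 as a group. Of 25 tested members, 17 were lower and 0 higher, with a median change of -1.98. Gfap, on chromosome 11 at 102887336 to 102900912, fell from 72.9 and 35.3 CPM to 0.182 and 0.0938 (change -5.51, SE 0.52, adjusted p = 0.000292). Slc39a12, a zinc transporter, fell from 30.8 and 26 to 0.264 and 0.578 CPM (change -4.37, SE 0.62, adjusted p = 0.00223). The chaperone gene Clu fell from 37 and 31.1 to 1.8 and 3.05 CPM. Apoe, the lipid carrier of astrocytes, stood at 16.9 and 24.6 CPM against 1090 and 640 (adjusted p = 0.0118). Its call was lost without Q92 replicate 1 (0.076), Q92 replicate 2 (0.0546) or Q50 replicate 1 (0.0814), and that of the glutamate transporter Slc1a2 (13.3 and 14.6 against 344 and 205 CPM) without Q50 replicate 1 (0.0536).

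Among the 8 astrocyte genes that were not called, Gja1 and Sox21 differed widely between replicates of a line. Gja1, a gap junction protein, read 1.95 and 205 CPM in the Q92 libraries and 304 and 4.67 in Q50. The summed level of the list was 1500 and 1830 CPM in Q92, 7870 and 6300 in Q50 and 2040 to 9000 in the other 8 libraries. Of the 17 lower genes, 12 had both Q92 libraries below all 8 libraries of the other genotypes. Both Q50 libraries lay above those 8 for 3 genes. Among all 1511 genes called lower the matching counts were 668 and 505. Over all tested genes, called or not, the shares were 8.79% and 6.3%. In bulk RNA, fewer cells of a type and less RNA per cell cannot be told apart. Leaving out 1 library at a time left 9 to 12 lower members.

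Genes of the progenitor state itself were mixed. In the stem cell and radial glia list of 23, 3 were higher and 4 lower. Slc1a3, the glutamate transporter of radial glia, fell from 2280 and 2230 to 778 and 808 CPM (change -1.51, SE 0.26, adjusted p = 0.00592), and the tetraspanin Cd9 from 179 and 161 to 70.8 and 90 CPM. Hopx, a homeodomain protein of outer radial glia, rose from 3 and 3.7 to 23.3 and 24.1 CPM (change 2.51, SE 0.34, adjusted p = 0.00176), and Prom1, the membrane protein also called CD133, from 12.7 and 12 to 24.9 and 23 CPM. The list's sum was close in the lines, 13900 and 13800 CPM in Q92 against 14700 and 15900 in Q50.

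Neuronal and oligodendrocyte genes were also more often lower than higher, as were all tested genes (11.4% lower and 8.03% higher). Of 20 tested neuronal genes 8 were lower (40%) and 1 higher (5%). Of 16 oligodendrocyte lineage genes 5 were lower (31.2%) and 0 higher. Leaving out 1 library left 5 to 7 lower neuronal and 3 to 4 lower oligodendrocyte genes. The neurofilament Nefl fell from 19.1 and 17.8 to 0.594 and 0.891 CPM (change -3.49, adjusted p = 0.00255), and Gad1, which makes GABA, from 7.08 and 6.11 to 0 and 0.0469 CPM. The exception, Elavl4, a neuronal RNA-binding protein, rose from 4.8 and 4.86 to 45.8 and 50.1 CPM (change 3.07, SE 0.27, adjusted p = 0.000227). Pdgfra fell from 193 and 139 to 1.27 and 2.2 CPM (change -5.93, SE 0.47, adjusted p = 0.00014), below every other NPC library, the lowest of which had 60.6. Lhfpl3, another precursor gene, fell from 112 and 66.2 to 8.69 and 10.2 CPM.

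Ion channels and transmitter receptors followed the same direction, with 18 of 47 lower and 3 higher, and 11 to 12 lower left without 1 library. Gria4, an AMPA receptor subunit, fell from 115 and 130 to 4.21 and 3.3 CPM (change -4.7, SE 0.14, adjusted p = 8.36e-07), and Grin3a, an NMDA receptor subunit, from 84.5 and 89.9 to 1.75 and 2.67 CPM. Grin2a, another NMDA receptor subunit, rose from 0.696 and 1.11 to 13.9 and 13.9 CPM (change 2.98, SE 0.18, adjusted p = 3.74e-05), and the calcium channel Cacna1c from 12.9 and 12.6 to 33.3 and 32.2 CPM.

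**Figure D3:**
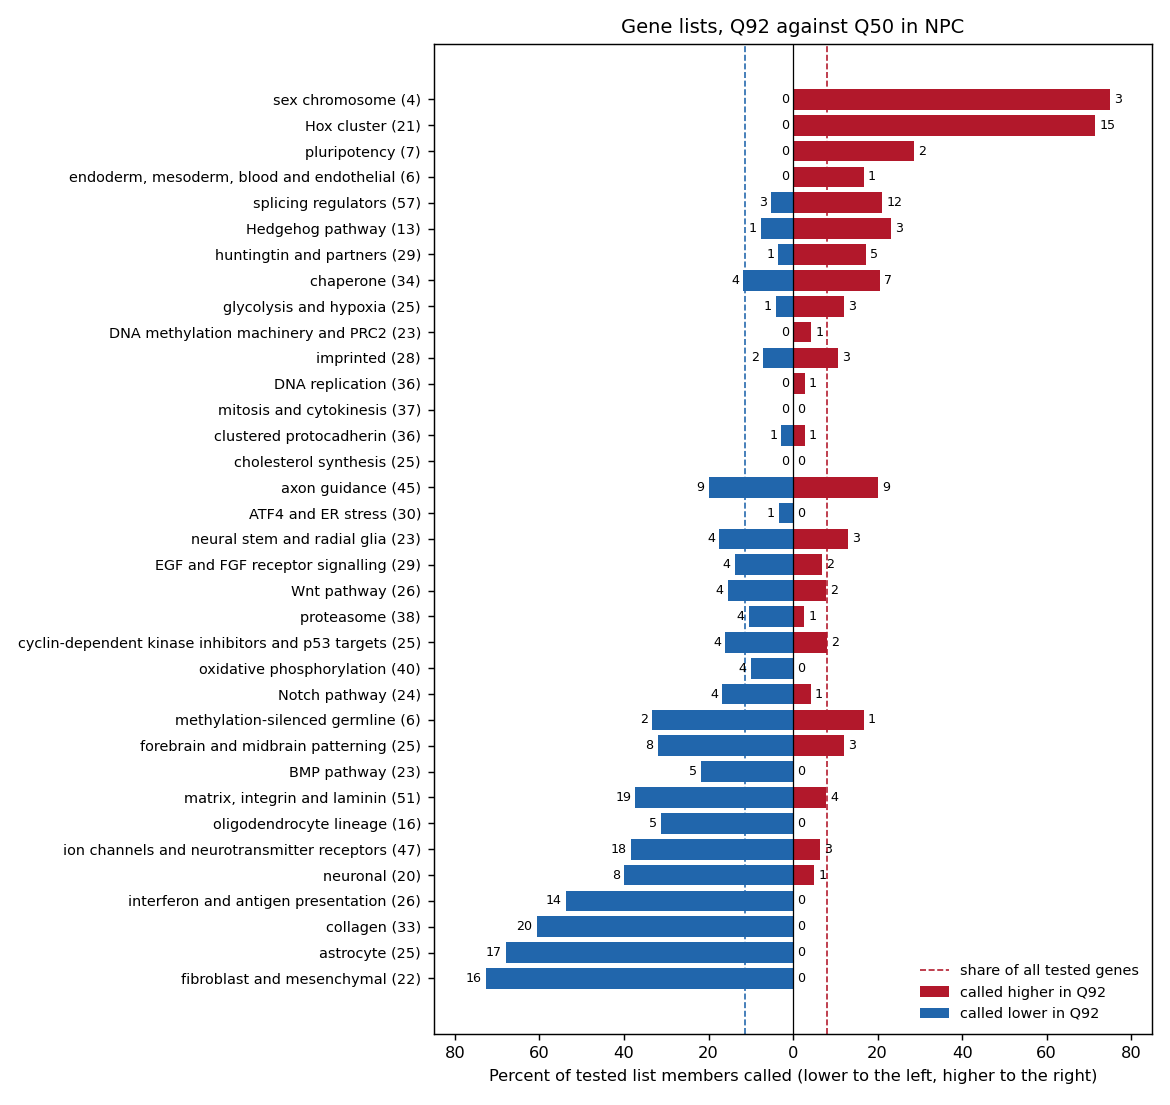
Bars give the percent of each gene list's tested members (number in parentheses) called higher in Q92 (red, to the right) or lower (blue, to the left), with the number of called genes at the bar end; dashed lines mark the share over all tested genes (8.03% higher and 11.4% lower). The longest red bars among lists of 20 or more genes are the Hox cluster (15 of 21), and the longest blue bars are fibroblast and mesenchymal (16 of 22), astrocyte (17 of 25) and collagen (20 of 33).

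Fibroblast and mesenchymal genes had the lowest median change of the 35 gene lists, and most collagen genes were lower as well. Of 22 tested fibroblast and mesenchymal genes, 16 were lower and 0 higher, with a median change of -2.87, and of 33 collagen genes 20 were lower and 0 higher, with a median of -1.22. Without the genes of chromosomes 1 and 8, 12 of 25 collagen genes were lower, with a median of -0.56. Col1a2, on chromosome 6 at 4504814 to 4541544, had 153 and 159 CPM in Q50 and 0.0495 and 0.0782 in Q92 (change -7.2, SE 0.17, adjusted p = 3.25e-07), 21410 reads against 8. Col3a1 fell from 608 and 630 to 5.27 and 6.1 CPM (change -6.54, SE 0.16), Col1a1 from 64.5 and 56.6 to 0.149 and 0.313 CPM, and Col6a3 from 109 and 106 to 0.892 and 1 CPM. Postn, the matrix protein periostin, fell from 29.3 and 29.5 to 0.198 and 0.391 CPM, and the mesenchymal receptor Pdgfrb from 18.6 and 18 to 0.314 and 0.0469 CPM.

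The fibroblast list was high in Q50 more than low in Q92. Its summed level was 1450 and 1400 CPM in Q50, 303 and 285 in Q92 and 259 to 611 in the other 8 libraries. Of the 16 lower members, 10 had both Q50 libraries above all 8 other libraries, and 4 had both Q92 libraries below them. Among all 1511 genes called lower the matching counts were 505 and 668. Over all tested genes, called or not, the shares were 6.3% and 8.79%. Members that were not called included Twist1, a mesenchymal transcription factor (4.49 and 4.14 against 4.22 and 2.87 CPM), Fbn1 (184 and 176 against 134 and 173 CPM) and Col5a1 (40.5 and 41.1 against 31.4 and 30 CPM). Of the 20 lower collagens, 7 lie on chromosomes 1 or 8, which are described further on. What part other cell types in the cultures have in these values was not tested.

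In the wider list of matrix, integrin and laminin genes, 19 of 51 were lower and 4 higher, with 11 to 13 lower and 2 to 3 higher left without 1 library. Sulf1, an extracellular sulfatase that trims heparan sulfate, fell from 29.1 and 30.2 to 1.02 and 1.22 CPM (change -3.85, SE 0.18, adjusted p = 7.51e-06). The proteoglycan Cspg5 fell from 565 and 508 to 40 and 59.5 CPM, and the thrombospondin Thbs2 from 35.3 and 39.8 to 1.39 and 2.5 CPM. Frem1 fell from 93.7 and 97.2 to 0.793 and 0.61 CPM (change -5.83, SE 0.23, adjusted p = 3.76e-06). Itga9 was the largest of the 4 rises. Without the genes of chromosomes 1 and 8, 14 of 43 genes of this list were lower and 3 higher.

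Interferon and antigen presentation genes formed another group that fell together. These genes are induced by interferon through transcription factors that bind promoters at an element built around a pair of GAAA runs. Of 26 tested members, 14 were lower and 0 higher, with a median change of -0.97, and 8 to 10 lower members were left without 1 library. Ifi27 fell from 41.3 and 36.3 to 5.25 and 3.6 CPM (change -2.89, SE 0.24, adjusted p = 0.000158) and Usp18, which removes the ubiquitin-like ISG15, from 4.24 and 4.21 to 0.578 and 0.641 CPM. Ddx58, which encodes the RNA sensor RIG-I, fell from 19.6 and 18.8 to 6.44 and 7.65 CPM (adjusted p = 0.0065, and 0.0546 without Q92 replicate 1). Gbp3, a guanylate-binding protein, stood at 7.98 and 6.32 against 22 and 31.2 CPM, a call lost without Q92 replicate 2 (0.054) or Q50 replicate 2 (0.0519).

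The group was not uniform. Stat2 (32.3 and 29 against 26.9 and 36.5 CPM), B2m (57.4 and 81.9 against 70.9 and 79.2 CPM) and the class I genes H2-K1 and H2-D1 were not called. Ifit1, a classic induced gene, was low throughout, 0.0495 and 0.141 CPM in Q92 and 2.22 and 0.964 in Q50 (adjusted p = 0.0069, and 0.054 without Q92 replicate 1). Of the 14 lower members, 7 had both Q50 libraries above all 8 other NPC libraries and 4 had both Q92 libraries below them. Among all 1511 genes called lower the matching counts were 505 and 668. Over all tested genes, called or not, the shares were 6.3% and 8.79%. Of the 14, 2 lie on chromosomes 1 or 8.

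RefSeq promoter windows on GRCm38.p6, running from 250 bases before to 50 after a gene's start, were available for 21 of the 26 tested members. The letters GAAA, any 2 bases and GAAA again, searched on both strands (TTTC, any 2 bases and TTTC on the other), occurred in 12 of these 21 genes (57.1%), against 3.99% of all 27025 genes with a window. The share was 5 of 9 among lower members and 7 of 12 among those not called, so the letters did not separate them. Among all genes with a window, 4.7% of the lower and 3.68% of the higher genes held a match, against 3.6% of all tested. Windows of 3 lower members with a match are printed to show where these letters sit around each start, 5′ to 3′ as the gene is read, with the matches in capitals.
Ifit1, chr19:34640639-34640938, plus strand, 2 matches: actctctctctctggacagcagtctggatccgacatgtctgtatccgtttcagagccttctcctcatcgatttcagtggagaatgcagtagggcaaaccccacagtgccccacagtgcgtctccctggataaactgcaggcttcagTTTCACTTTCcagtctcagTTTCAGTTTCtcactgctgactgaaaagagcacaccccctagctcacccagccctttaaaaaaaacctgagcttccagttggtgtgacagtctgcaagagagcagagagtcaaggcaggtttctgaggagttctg
Gbp3, chr3:142559794-142560093, plus strand, 2 overlapping matches: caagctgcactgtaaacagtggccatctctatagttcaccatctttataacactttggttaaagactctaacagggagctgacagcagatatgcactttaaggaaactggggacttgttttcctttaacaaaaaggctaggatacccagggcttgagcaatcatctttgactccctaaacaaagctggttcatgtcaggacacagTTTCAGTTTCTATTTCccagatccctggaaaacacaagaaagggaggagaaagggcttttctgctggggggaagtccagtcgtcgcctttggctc
Ddx58, chr4:40239776-40240075, minus strand, 1 match: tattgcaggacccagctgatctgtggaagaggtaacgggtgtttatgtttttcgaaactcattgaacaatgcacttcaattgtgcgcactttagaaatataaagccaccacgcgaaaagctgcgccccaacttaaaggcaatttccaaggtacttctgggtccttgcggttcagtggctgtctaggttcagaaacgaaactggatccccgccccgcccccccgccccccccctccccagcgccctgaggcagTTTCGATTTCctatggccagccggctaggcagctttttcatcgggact
The Ifit1 matches lie close together upstream of the start, that of Gbp3 lies nearer to the start and that of Ddx58 just after it. A match is a description of these letters and no measurement of binding.

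Axon guidance genes changed in both directions, 9 higher and 9 lower of 45. Plxna4, a semaphorin co-receptor, rose from 2.65 and 2.56 to 31.9 and 31.8 CPM (change 3.19, SE 0.32, adjusted p = 0.000452), and Slit1, a repellent ligand, from 3.75 and 3.68 to 30.3 and 41.6 CPM. The ephrin receptors Epha7 (8.02 and 8.57 against 1.24 and 1.07 CPM) and Epha3 (4.76 and 4.67 against 0.986 and 0.482 CPM) were higher as well. Nrp1, another semaphorin co-receptor, fell from 79.4 and 70.5 to 14.9 and 16.1 CPM (change -2.2, SE 0.19, adjusted p = 0.000217), and the ligands Sema3f and Sema5a fell with it, Sema5a from 52.5 and 54.9 to 12.1 and 9.88 CPM. Leaving out 1 library left 4 to 6 higher and 5 to 7 lower members.

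Signalling lists of 13 to 29 genes held 4 to 6 called genes each, against 8.03% higher and 11.4% lower over all tested genes. Of the growth factor receptor list of 29, 2 were higher and 4 lower, with Fgfr2 falling from 24 and 24.8 to 6.85 and 7.22 CPM (change -1.66, adjusted p = 0.0027). The Wnt list of 26 had 2 higher and 4 lower: Lgr5, an R-spondin receptor, rose from 11.6 and 13.2 to 45.6 and 44.6 CPM and the secreted Dkk3 fell from 11.5 and 13.8 to 0.809 and 1.16 CPM. The BMP list of 23 had 0 higher and 5 lower (21.7%), such as the antagonist Chrdl1, from 24 and 30.8 to 10.6 and 8.69 CPM. The Hedgehog list of 13 had 3 higher (23.1%) and 1 lower, the transcription factor Gli2 falling from 8.88 and 7.85 to 2.26 and 1.99 CPM. Without the genes of chromosomes 1 and 8, 2 of 9 Hedgehog genes were higher and 0 lower. The Notch list of 24 had 1 higher and 4 lower (16.7%). Leaving out 1 of the 4 libraries at a time left 0 to 2 higher Hedgehog genes, 0 to 1 lower Notch genes, 3 to 4 lower BMP genes, 2 to 3 lower Wnt genes, and 0 to 1 higher and 2 to 3 lower growth factor receptor genes.

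Splicing regulators, the class closest to the question in the series title, were more often higher than lower. Of 57 tested, 12 rose (21.1%, against 8.03% of all tested genes) and 3 fell (5.26%, against 11.4%). Their median change was 0.39, against 0.05 over all tested genes. Srsf6, an SR protein that binds CAG-expanded Htt RNA in earlier work, rose from 122 and 117 CPM to 251 and 250 (change 1.06, SE 0.16, adjusted p = 0.00313). Mbnl3, a muscleblind protein, rose from 0.251 and 0.235 to 3.05 and 2.22 CPM (change 1.54, SE 0.18, adjusted p = 0.000833). Rbfox1 fell from 0.948 and 1.12 to 0 and 0.0156 CPM (change -1.01, SE 0.16, adjusted p = 0.0034). Leaving out 1 library at a time left 2 to 4 higher and 1 to 2 lower members of this list, and the spread of the 8 knock-in libraries gave 29 higher and 4 lower.

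Among huntingtin and its partners, 5 of 29 were higher and 1 lower. The lower gene was Ntrk2, the receptor TrkB for brain-derived neurotrophic factor, which fell from 261 and 292 to 10.7 and 11.1 CPM (change -4.54, SE 0.75, adjusted p = 0.00448). Its ligand gene Bdnf stood at 7.74 and 7.74 against 2.01 and 2.68 CPM (change 1.39, adjusted p = 0.0345), and the adjusted p became 0.14 without Q92 replicate 1, 0.131 without Q92 replicate 2, 0.174 without Q50 replicate 1 and 0.0929 without Q50 replicate 2. The other higher members included Sin3a, Ncor1 and Prpf40b, with changes of 0.65, 0.43 and 0.53, and none of the 5 higher calls held in any fit that left out a library. In the chaperone list of 34, 7 were higher and 4 lower, with 1 to 5 higher and 1 to 2 lower left without 1 library: Hspa4l rose from 79.6 and 80 to 141 and 142 CPM (change 0.82, adjusted p = 0.00611), and Dnajb2, on chromosome 1, fell from 23.5 and 23.6 to 9.74 and 11.5 CPM.

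Cell cycle genes leaned one way without passing the test. Of 37 mitosis and cytokinesis genes none was called, although 36 had a change above 0 and the median was 0.6; Nuf2, at -0.16, was the exception. Mki67 stood at 1290 and 1070 CPM in Q92 against 776 and 853 in Q50 (adjusted p = 0.549) and Top2a at 1300 and 1220 against 824 and 902 CPM (adjusted p = 0.466). The DNA replication list of 36 had a median of 0.57 and 1 higher gene, Gins3, which rose from 8.93 and 8.17 to 21.1 and 19.1 CPM (adjusted p = 0.00496). Rrm1 (555 and 520 against 396 and 463 CPM) and Mcm6 (379 and 321 against 314 and 364 CPM) were not called. With the spread taken from the 8 knock-in libraries, 30 of the 37 mitosis genes and 24 of the 36 replication genes were called higher, and 1 replication gene lower. The mitosis sum was 3780 and 10000 CPM in the 2 WT libraries and 4060 and 10500 in KO, a replicate difference wider than that between Q92 and Q50 (8670 and 8070 against 5330 and 6000 CPM).

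The cell cycle inhibitors and p53 targets gave 2 higher and 4 lower of 25, of which 1 higher and 0 to 1 lower were left without 1 library. Eda2r, a p53 target receptor, rose from 107 and 96.1 to 183 and 183 CPM (change 0.84, adjusted p = 0.00366). Cdkn2b stood at 14.3 and 19.1 against 44 and 47.4 CPM (change -1.41, adjusted p = 0.00948), and this call was lost without Q92 replicate 1 (0.0757), Q50 replicate 1 (0.0521) or Q50 replicate 2 (0.0581). The imprinted list of 28 gave 3 higher (10.7%) and 2 lower (7.14%). The shares over all tested genes were 8.03% and 11.4%. The list of inhibitors and p53 targets, with 8% higher and 16% lower, was also near them. Grb10, an adaptor that dampens insulin receptor signalling, rose from 2.2 and 2.55 to 27.3 and 27.8 CPM (change 3.08, SE 0.34, adjusted p = 0.000685), Zdbf2 from 0.0967 and 0.0823 to 7.35 and 4.17 CPM, and Igf2r from 33.5 and 48.5 to 137 and 170 CPM.

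Metabolic and quality-control lists held few calls, though more with the spread of the 8 knock-in libraries, where 9 of 25 cholesterol synthesis genes, 13 of 25 glycolysis and hypoxia genes, 18 of 34 chaperones and 12 of 23 DNA methylation and PRC2 genes were higher. In the fit over 12 libraries, cholesterol synthesis had none of 25 called, with Hmgcs1 at 1450 and 1510 against 1410 and 1560 CPM. The oxidative phosphorylation list of 40 had 0 higher and 4 lower (Sdhc, Cox5b, Ndufs1 and Ndufa10), all on chromosome 1; Ndufs1 fell from 350 and 352 to 201 and 196 CPM (change -0.82, SE 0.12, adjusted p = 0.00238). The call of Sdhc was lost without Q92 replicate 1 (0.103), Q92 replicate 2 (0.0652), Q50 replicate 1 (0.0727) or Q50 replicate 2 (0.0858), and that of Ndufa10 without Q92 replicate 2 (0.058). The glycolysis and hypoxia list of 25 had 3 higher (0 to 2 without 1 library) and 1 lower, the hexokinase Hk1 falling from 135 and 143 to 76 and 65.4 CPM. The proteasome list of 38 had 1 higher and 4 lower (1 to 2 without 1 library), among them the interferon-induced Psmb8, from 1.31 and 1.12 to 0.149 and 0.125 CPM. The ER stress list of 30 had 0 higher and 1 lower, and the DNA methylation and PRC2 list of 23 had 1 higher and 0 lower. Clustered protocadherins gave 1 higher and 1 lower of 36, and methylation-silenced germline genes 1 higher and 2 lower of 6, with Xlr3a falling from 19.2 and 18 to 0.727 and 0.657 CPM. Pluripotency genes gave 2 higher of 7, among them Klf4 (13.2 and 18.5 against 2.19 and 2.62 CPM), a factor that neural stem cells also express, and the list of endoderm, mesoderm, blood and endothelial genes gave 1 higher of 6, T, at 2.25 and 2.19 against 0.387 and 0.282 CPM, with Actc1 (0.528 and 0.735 against 1.1 and 1.42 CPM) and Kdr (2.41 and 2.66 against 2.24 and 3.08 CPM) not called.

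Lower genes were concentrated on chromosomes 1 and 8. On chromosome 1 the median change was -0.43, with 222 genes lower and 15 higher of 776, and 76.7% of genes had a change below 0. On chromosome 8 the median was -0.27, with 143 lower and 17 higher of 708. The medians of the other 17 autosomes ran from 0.05 to 0.15. Relative to the median gene of those autosomes, chromosome 1 stood at -0.52 and chromosome 8 at -0.37 on the log2 scale, so that Q50 was 1.44-fold and 1.29-fold higher.

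The shift ran along the whole of both chromosomes: the medians of 4 equal blocks of tested genes, in order of position, were -0.48, -0.42, -0.35 and -0.45 on chromosome 1 and -0.36, -0.21, -0.23 and -0.29 on chromosome 8. Genes were also set against the mean of the 12 NPC libraries, and each library's median over all autosomal genes was subtracted. On this scale the median gene of chromosome 1 stood at 0.28 and 0.27 in Q50 and -0.2 and -0.23 in Q92. WT (0.18 and 0.12) and KO (0.26 and 0.27) sided with Q50, and Q20 and Q111 with Q92. For chromosome 8 the Q92 libraries (-0.22 and -0.22) sided with WT (-0.27 and -0.23), and the Q50 libraries stood at 0.11 and 0.14. KO (0.14 and 0.12), Q111 (0.19 and 0.15) and Q20 (0.06 and 0.04) were above 0 there, as Q50 was. Without the genes of both chromosomes, 1008 genes were higher and 1125 lower of 11722, so that the share of higher genes among calls was 47.3% in place of 41.2%. In mESC the median on chromosome 1 was -0.33, on chromosome 8 -0.07 and on chromosome 14 -0.25. DNA copy number was not measured, and a part for it in these medians was not tested.

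**Figure D4:**
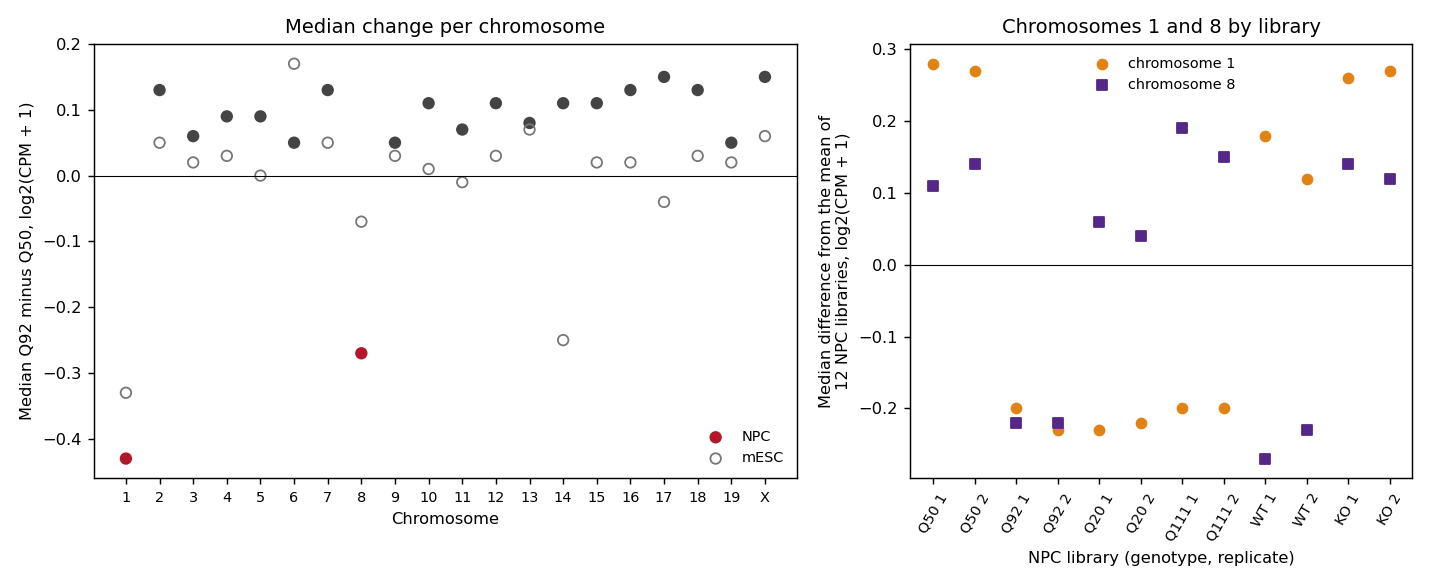
The left panel gives the median Q92 minus Q50 change in log2(CPM + 1) over the tested genes of each chromosome, filled for NPC (chromosomes 1 and 8 in red) and open for mESC. The right panel gives, for each of the 12 NPC libraries, the median difference of chromosome 1 and chromosome 8 genes from the mean of all 12. Each library's median difference over all autosomal genes was subtracted. In NPC chromosomes 1 (-0.43) and 8 (-0.27) lie below 0 and all others above it, and the Q50 and Q92 libraries stand on opposite sides for both chromosomes.

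Another pair of knock-in NPC lines that shares no library with Q92 and Q50, Q111 against Q20, showed how far the same genes changed between other repeat lengths. Of the 1060 genes higher in Q92, 150 (14.2%) were also higher in Q111 than in Q20, against 12.2% of all tested genes, and they were 9.28% of the genes higher in Q111. Of the 1511 lower genes, 467 (30.9%) were also lower in Q111, against 16.1% of all tested, and they were 22% of the genes lower in Q111. In opposite directions 391 genes were called. Of the genes higher in Q92, 178 (16.8%) were lower in Q111, against 16.1% of all tested. Of the genes lower in Q92, 213 (14.1%) were higher in Q111, against 12.2% of all tested. Both shares were near those over all tested genes. Across the 13206 genes the changes had a Pearson r of 0.176; genes are not independent replicates. The test of the difference between the changes called 2606 genes (19.7%), 1419 positive and 1187 negative. Leaving out any 1 of the Q92 and Q50 libraries left 244 to 326 genes changed the same way in both pairs, in place of 617, and 205 to 224 changed oppositely, in place of 391.

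Among genes changed the same way, Col3a1 fell by 6.54 between Q50 and Q92 and by 6.56 between Q20 and Q111, where it stood at 240 and 194 CPM in Q20 and 1.31 and 1.28 in Q111 (difference adjusted p = 0.959). Col1a2 fell in both as well, and by more in Q92 (difference -2.85, adjusted p = 0.000149). Abca1 stood at 432 and 424 CPM in Q20 and 12.6 and 14.6 in Q111. Mmd2 stood at 3.02 and 4.61 CPM in Q92 and 189 and 109 in Q50, with a call lost without Q92 replicate 1 (0.0596) or Q50 replicate 1 (0.0644). Grin2a (1.72 in Q111 against Q20) and Mical2, an actin-oxidising enzyme that rose from 9.59 and 12.3 to 56.3 and 56.5 CPM in Q92, were higher in both. So were Erich3 (20.2 and 23.2 against 3.46 and 6.6 CPM), whose call was lost without Q92 replicate 1 (0.052), Q92 replicate 2 (0.0666) or Q50 replicate 1 (0.08), and Sel1l3 (121 and 142 against 26.6 and 38.8 CPM), whose call was lost without Q92 replicate 1 (0.111), Q92 replicate 2 (0.137), Q50 replicate 1 (0.166) or Q50 replicate 2 (0.0753).

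The genes with the clearest difference between the comparisons were of several kinds. Pou5f1, Lin28a and Sall4, pluripotency genes, were lower in Q111 than in Q20 and were not called between Q92 and Q50: Pou5f1 stood at 90.1 and 87.4 CPM in the Q20 NPC and near 0 in Q92, Q50 and Q111. Gria4 fell in Q92 and rose by 0.95 in Q111 (difference -5.65, adjusted p = 1.89e-06). Ctsh, a lysosomal protease, fell from 25.5 and 25.3 to 0.215 and 0.188 CPM in Q92 and rose from 4.2 and 3.84 to 22.5 and 21 in Q111. Gm11808, a gene model with 1 exon, had 516 and 625 CPM in Q50 and was listed at 0 for each Q92 library; reads of a gene with near-identical copies can be split by the counting, so this value is uncertain, and its change of -9.15 is not counted among the 10 largest falls.

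**Figure D5:**
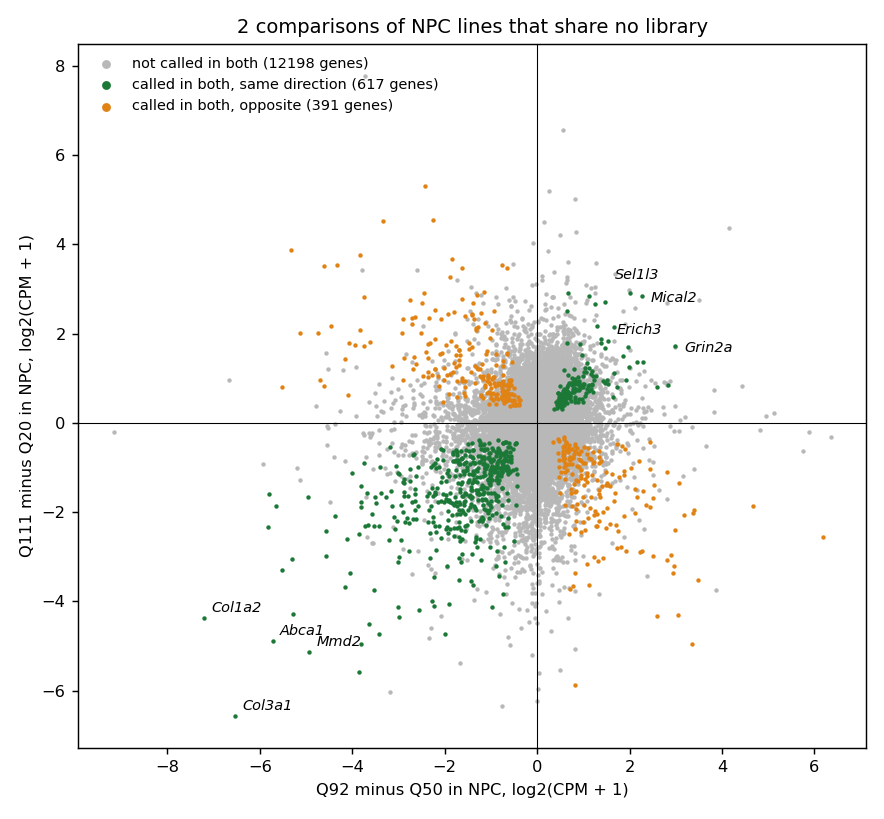
Each point is 1 of 13206 genes, with the Q92 minus Q50 change on the x axis and the Q111 minus Q20 change on the y axis, both in log2(CPM + 1) in NPC; green genes were called in both comparisons in the same direction (617), orange ones in opposite directions (391) and grey ones were not called in both. The green points are denser at the lower left (467 genes) than at the upper right (150 genes), and the genes named in the text carry their symbols.

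Between Q92 and Q50 fewer genes were called in mESC than in NPC. Of 12321 genes tested in both cell types, 9 (0.073%) were called between Q92 and Q50 in mESC, 2 higher and 7 lower. Before adjustment 618 had a p below 0.05. The same fit over 24 libraries called 1361 of these genes (11%) in NPC. In mESC the replicate numbers paired the libraries. With a replicate block within each cell type 80 genes (0.649%) were called in mESC, 25 higher and 55 lower, and 2905 (23.6%) in NPC. The test of the difference of the changes between NPC and mESC called 456 genes (3.7%), 160 higher and 296 lower in NPC; before adjustment 1953 had a p below 0.05. With the block it called 1328 genes (10.8%), 596 higher and 732 lower. Of 2225 genes called in the fit of the 12 NPC libraries and tested in both cell types, 432 had such a called difference, and 1117 with the block. For the rest a difference was not shown. Leaving out any 1 of the 8 libraries of these lines left 183 to 283 called differences. Col1a2 had a change of 0.57 in mESC (26.4 and 29.3 CPM in Q92, 17.5 and 19.2 in Q50) against -7.2 in NPC. Frem1 (0.07 in mESC) and Gria4 (-0.02 in mESC) likewise differed between the lines in NPC and were near level in mESC. Ddx3y and Eif2s3y were higher in Q92 in both cell types, and by 4.62 and 4.56 more in NPC.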

How the data were processed

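RNA from the cells was sequenced as paired ends of 75 bases on a NextSeq 500, per the labels' protocols. CASAVA 1.8, STAR and GRCm38.p6 are named in the submitters' processing notes; how reads were counted, and whether by strand, is not given in the sources used here, so overlapping and antisense genes cannot be told apart. The deposited signal values are CPM (counts scaled to library size) that the authors scaled between libraries: all were whole multiples of a per-library step within 0.001 read, and TMM factors recomputed from the recovered reads gave the deposited values. NPC reads per library ran from 48525333 to 118038952.

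Changes were tested with limma 3.58.1 (trend, R 4.3.3) on log2(CPM + 1) over the 12 NPC libraries with 6 genotype means, for 13206 of 16024 genes that reached a CPM of 1 in 2 or more libraries, with Benjamini-Hochberg adjustment over all of them. Recovered reads were tested with edgeR 4.0.16 (quasi-likelihood) as an alternative, and the scripts were tested on simulated data. The members and lists were chosen with earlier results of these data known, so lists are described by counts only. Named genes were Htt, the 10 largest changes each way at 5 CPM or more among protein-coding genes of more than 1 exon, up to 4 called members of each list each way, and the clearest genes of each test of a difference; Six3, Irx1, Lhx2, Emx2, Clu, Pdgfrb, Ddx58, Ifit1, Ncor1 and the genes given as not called or as markers were added after their values were seen. Replicate differences of NPC genotypes correlated at -0.0495 to 0.467 over 15 pairs. The highest values were those of KO with WT (0.467), Q50 with WT (0.17) and KO with Q50 (0.106). Q50 with Q92 stood at 0.0041, so the numbers did not pair the libraries of these 2 lines, while WT and KO shared a replicate difference. Replicate differences of mESC genotypes correlated at 0.25 to 0.547, every pair over 0.1, so there the numbers paired the libraries. Fits that use mESC are also given with a replicate block within cell type. Other filters, pseudocounts, scalings and sets of libraries were tried.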

Additional observations from a re-analysis of the deposited data

Results flagged for a closer look

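For 456 genes the Q92 minus Q50 change in NPC differed from that in mESC by the limma test of the difference over 24 libraries. This fit had no replicate block. The 6 genes described here are the 3 of each sign with the smallest p. Ddx3y (difference 4.62, SE 0.27, adjusted p = 1.67e-07) and Eif2s3y (difference 4.56, adjusted p = 2.65e-07) were higher in Q92 in both cell types, with mESC changes of 1.73 and 1.32, and were near 0 CPM in the Q50 NPC alone. Grin2a (difference 3.33, adjusted p = 1.3e-05) was higher in Q92 NPC, with a change of -0.35 in mESC. Col1a2 (difference -7.78, adjusted p = 9.52e-08), Gria4 (difference -4.68, adjusted p = 1.67e-07) and Frem1 (difference -5.89, adjusted p = 2.65e-07) were lower in Q92 NPC, with mESC changes of 0.57, -0.02 and 0.07.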

How the results depend on the processing

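Of 156 called genes that the naming rule picked, 89 kept their call under all of the 15 alternatives in which they were tested, 67 lost it under at least 1, and none reversed. The 2571 calls became 5504 (2888 higher, 2616 lower) with the 8 knock-in libraries and 4430 (2197 higher, 2233 lower) with the 4 libraries alone. They became 2414 with edgeR and 2642 with a replicate block. Its numbers did not pair the Q50 and Q92 libraries, whose replicate differences correlated at 0.0041. A mean CPM of at least 5 left 971 lower genes, 662 of them by 2-fold or more, and a pseudocount of 4 left 627 by 2-fold or more. Genes changed in both pairs numbered 341 in the same and 257 in opposite directions at a mean CPM of at least 5, and 2461 and 1032 with the 8 knock-in libraries. With a replicate block within cell type, the differences from mESC rose from 456 to 1328; the 6 genes named above for such a difference kept their call. The cause of these moves was not tested.

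Leaving out 1 library left 1115 to 1406 calls, 364 to 511 higher and 751 to 895 lower, 237 to 313 and 656 to 757 of them by 2-fold, 244 to 326 shared and 194 to 224 opposite with Q111 against Q20, and 183 to 283 differences from mESC. The medians ran from -0.44 to -0.42 on chromosome 1 and -0.3 to -0.23 on chromosome 8, and the Htt change from -0.08 to 0.06, positive without Q92 replicate 2 (0.06) and Q50 replicate 1 (0.03).

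Genes that turned sign were all uncalled. They were Kdr (0.27 with quantile normalization, 0.01 without Q92 replicate 1, 0.12 without Q50 replicate 2, -0.21 without Q50 replicate 1), Mcm6 (-0.08 with quantile normalization, 0 with median-of-ratios scaling, -0.03 with edgeR, -0.07 without Q92 replicate 1, -0.06 without Q50 replicate 1, 0.17 without Q92 replicate 2), Hmgcs1 (0.03 without Q92 replicate 1, 0.07 without Q50 replicate 2), Hsp90b1 (-0.11 with quantile normalization), Pou5f1 (0.07 with quantile normalization, 0.03 without Q92 replicate 1, 0.01 without Q50 replicate 1) and Sall4 (0 without Q92 replicate 1).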
